A study of Mus musculus with 7 samples.

Results

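The latrophilins Lphn1, Lphn2 and Lphn3 and the FLRT genes Flrt1, Flrt2 and Flrt3 were followed in RNA-seq of the adult mouse hippocampus. They were found by gene name, as 6 genes in 7 of the 38924 records of the deposited gene table and as 157 of the 359565 exon bins, the separate pieces that the exons of a gene are cut into where transcripts differ. Flrt3 has 2 overlapping records with identical counts and was counted as 1 gene. The libraries came from polyadenylated RNA of dissected tissue from untreated adult mice: Ammon's horn of wild-type mice (3 libraries), Ammon's horn of Khdrbs3 knockout mice (3 libraries) and dentate gyrus of wild-type mice (1 library). The knocked-out gene, Khdrbs3, encodes an RNA-binding protein that regulates splicing, also called T-STAR; its null allele had been backcrossed to C57Bl6 over 8 generations, and the labels give that background for all 7 libraries. The labels do not say whether libraries of a group are separate animals, so the p-values measure only the spread between these libraries, which may be technical.

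Latrophilins are adhesion G protein-coupled receptors of the neuronal surface, known as receptors of the spider toxin α-latrotoxin and as organisers of synapses. Their large extracellular part binds teneurins, neurexins and FLRT proteins on the opposite cell, and they signal through G proteins and are held at synapses by SHANK scaffolds. FLRTs are membrane proteins with leucine-rich repeats and a fibronectin domain. Besides latrophilins they bind the netrin receptors of the UNC5 family and FGF receptors, and in the hippocampus they are known to act in synapse formation and in cell positioning.

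On the mm10 genome, Lphn1 lies on the plus strand at chr8:83900105-83941954 and Lphn3 on the plus strand at chr5:81020138-81825133. Lphn2 lies on the minus strand at chr3:148815586-148989316. Flrt1 lies on the minus strand at chr19:7092014-7105729 and Flrt3 on the minus strand at chr2:140650914-140671469, each inside a gene of the opposite strand, Macrod1 and Macrod2. Flrt2 lies on the plus strand at chr12:95692226-95785215.

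The latrophilin paralogs carry matching short coding exons. Those in Lphn1 bin 11 and Lphn3 bins 33, 43 and 55 are skipped by some annotated transcripts. Lphn1 bin 17 is in all 6 annotated transcripts over its position. Over Lphn2 bins 9 and 19 only 1 transcript is annotated, which contains both, so the annotation cannot show whether they are skipped. They are shown because the exon-bin data below report how far each was read. Exon bases are in capitals and 20 bases of the neighbouring exon on each side are in lower case, 5′ to 3′ on the gene's strand, from GENCODE M21 transcripts (GRCm38). The first pair is a 15-base exon between the lectin-like and olfactomedin domains of the receptor, at chr8:83926262-83926276 and chr5:81509724-81509738.
Lphn1 bin 11: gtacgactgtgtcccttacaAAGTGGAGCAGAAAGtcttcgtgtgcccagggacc
Lphn3 bin 33: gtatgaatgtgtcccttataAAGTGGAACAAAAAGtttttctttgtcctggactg
The next set is a 39-base exon, at chr8:83932372-83932410, chr3:148849766-148849804 and chr5:81663386-81663424.
Lphn1 bin 17: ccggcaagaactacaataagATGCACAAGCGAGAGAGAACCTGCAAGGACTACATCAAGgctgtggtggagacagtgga
Lphn2 bin 19: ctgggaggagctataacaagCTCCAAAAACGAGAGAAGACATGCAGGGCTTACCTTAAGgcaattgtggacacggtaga
Lphn3 bin 43: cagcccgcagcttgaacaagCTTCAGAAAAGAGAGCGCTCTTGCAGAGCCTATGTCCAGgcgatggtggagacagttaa
The last pair is a 27-base exon, at chr3:148827212-148827238 and chr5:81757986-81758012.
Lphn2 bin 9: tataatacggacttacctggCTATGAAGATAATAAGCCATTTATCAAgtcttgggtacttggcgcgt
Lphn3 bin 55: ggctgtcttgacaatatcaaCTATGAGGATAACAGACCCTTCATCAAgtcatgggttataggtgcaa
The 15-base exons were identical at 13 of 15 bases and the 27-base exons at 21 of 27. Of the 39-base exons, Lphn1 and Lphn2 shared 27 bases, Lphn2 and Lphn3 25, and Lphn1 and Lphn3 24. All of these lengths are multiples of 3.

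Library totals ran from 50230733 to 67692326 in the gene table and from 29698245 to 39904606 in the exon bins. The mitochondrial share of gene-table counts was 10.4% to 10.9% in the wild-type libraries of Ammon's horn, 11.1% to 14.1% in those of the knockout and 9.87% in the dentate gyrus library. The 12 choroid plexus markers summed to 187 to 364 counts per 1000000 (CPM, scaled by edgeR's TMM method) in the wild type, to 1207 and 1192 CPM in knockout replicates 1 and 3, to 181 CPM in knockout replicate 2 and to 522 CPM in the dentate gyrus, so 2 knockout libraries stood apart. Khdrbs3 itself checked the labels through exon bin 2, which held 808, 1103 and 964 reads in the wild-type libraries of Ammon's horn, 6, 9 and 7 in the knockouts and 506 in the dentate gyrus. The count over the whole Khdrbs3 gene was not lower in the knockout: it was 140 ± 4.6 CPM in wild type and 199 ± 3.2 CPM in the knockout (SD, n = 3 and 3).

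In wild-type Ammon's horn, Lphn1 had by far the most exon-bin reads per length of exon of the 6 genes. Levels compared between genes are exon-bin reads per kilobase per 1000000 reads (RPKM), over bins that overlap no exon of another gene. A read over several bins may count in each, which would raise the level of a gene cut into many bins. Annotated bins number 40 in Lphn1, 29 in Lphn2 and 72 in Lphn3, beside 2, 4 and 10 in Flrt1, Flrt2 and Flrt3. Lphn1 bin 33, of 6 bases, held 153, 242 and 208 reads in the wild-type libraries. The part of such reads in the order of the genes and in the family shares was not tested. All such annotated bins enter the length, also those with few or no reads. Lphn3 bin 31 (2306 bases) held 0 to 5 reads per library and Lphn2 bin 25 (1471 bases) 0 to 1. Lphn1 stood at 38.4, 41.8 and 43 in the 3 wild-type libraries. Lphn3 stood at 7.73, 6.86 and 8.39 and Flrt3 at 6.69, 6.40 and 8.12, and these ranges overlapped. Lphn2 followed at 5.18, 4.98 and 4.29 and Flrt2 at 4.57, 3.99 and 3.6, again with overlapping ranges. Both overlaps depend on the length used, because the little-read bins lower the levels of Lphn3 and Lphn2. Flrt1 was lowest, at 1.49, 1.58 and 1.68, with no library near any of the others.

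Among the latrophilins, Lphn1 took 76.7% ± 1.6 of the summed level per length in wild-type Ammon's horn, Lphn3 14.3% ± 1.3 and Lphn2 9.03% ± 1.2 (SD, n = 3). In the knockout these shares were 77.2% ± 0.79, 14.3% ± 0.74 and 8.47% ± 0.67 (SD, n = 3), each within the spread of the wild-type libraries. In the single dentate gyrus library Lphn1 took 83.9%, Lphn3 13.8% and Lphn2 2.30%. The level of Lphn1 was 8.61 ± 1.3 times that of Lphn2 in wild-type Ammon's horn (SD, n = 3), with single libraries at 7.42, 8.39 and 10.02, and 36.5 times in the dentate gyrus. The order of the latrophilins was the same on a long internal coding exon that all 3 genes have, of 801 bases in Lphn1 and Lphn3 and 809 bases in Lphn2: levels were 31.8 ± 6.0, 8.72 ± 1.6 and 4.22 ± 0.34 RPKM for Lphn1, Lphn3 and Lphn2 (SD, n = 3). On that exon Lphn1 took a smaller share, 70.9% ± 2.2, with Lphn3 at 19.5% ± 1.1 and Lphn2 at 9.60% ± 1.7 (SD, n = 3). That comparison was added after the data were seen. In Lphn1 the exon is cut into bins 12 and 13, of 589 and 212 bases, and a read over their edge may count in both. In Lphn2 and Lphn3 it is a single bin. Divided by the length of the whole gene instead, the gene-table counts put Lphn2 above Lphn3, a gene that spans 805 kilobases.

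Flrt3 took 55.5% ± 4.4 of the summed FLRT level per length in wild-type Ammon's horn, Flrt2 32.0% ± 4.7 and Flrt1 12.5% ± 0.77 (SD, n = 3). In the knockout the shares were 53.0% ± 2.5, 34.3% ± 2.6 and 12.7% ± 0.076 (SD, n = 3). The dentate gyrus library had 68.7% Flrt3, 24.7% Flrt2 and 6.52% Flrt1, so that Flrt3 held a larger share than in any Ammon's horn library, where it ran from 50.1% to 60.6%.

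**Figure D1:**
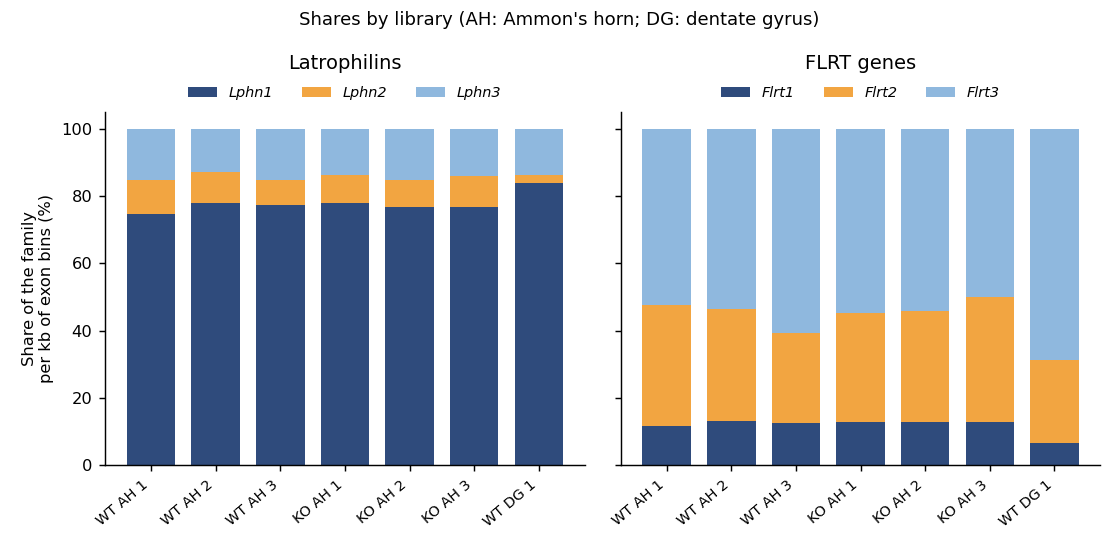
Share of each latrophilin (left) and FLRT gene (right) in the summed exon-bin level per kilobase of its family, in percent, with 1 bar per library. The Lphn2 band was 2.30% in the dentate gyrus, and in Ammon's horn 7.71% to 10.1% with Khdrbs3 and 8.04% to 9.24% without it.

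The first comparison asked whether loss of Khdrbs3 changed these genes in Ammon's horn. Of the 6 genes, 0 were called changed at an adjusted p under 0.05 by edgeR's quasi-likelihood test with Benjamini-Hochberg adjustment over all genes, against 0.0745% of the 22830 genes tested (17 genes). None of the 6 had an unadjusted p under 0.05 by that test, beside 1914 of the 22830 genes tested. DESeq2 and limma-voom called 0 of the 6 as well. The 6 genes held between 581 and 22488 gene-table counts per Ammon's horn library.

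Lphn1, the main latrophilin here, stood at 308, 326 and 345 CPM in wild type and 328, 338 and 336 CPM in the knockout. All 3 knockout libraries lay inside the wild-type range, and the log2 fold change was 0.04 with a 95% interval from -0.09 to 0.16. Lphn2 stood at 33.8, 32.7 and 27.8 CPM in wild type and 27.0, 29.4 and 32.8 CPM in the knockout. The groups overlapped, with a log2 fold change of -0.08 and an interval from -0.28 to 0.12. Lphn3 stood at 114, 101 and 120 CPM in wild type and 111, 117 and 116 CPM in the knockout, again inside the wild-type range, with a log2 fold change of 0.04 (interval -0.10 to 0.19).

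Flrt1 stood at 11.8, 11.7 and 12.1 CPM in wild type and 11.5, 12.2 and 11.5 CPM in the knockout, and its log2 fold change was -0.01 (interval -0.18 to 0.15). Flrt2 stood at 41.3, 35.8 and 34.1 CPM in wild type and 37.4, 39.9 and 43.4 CPM in the knockout. It had the lowest p of the 6, 0.17 before and 0.73 after adjustment by edgeR, with a log2 fold change of 0.12 (interval -0.06 to 0.30). Flrt3 stood at 34.3, 31.9 and 41.4 CPM in wild type and 35.2, 36.8 and 32.9 CPM in the knockout, with a log2 fold change of -0.03 (interval -0.24 to 0.17). Across the 6 genes the gene-table intervals reached no further than -0.28 on the lower side and 0.30 on the upper side. In the exon-bin sums the upper limit for Flrt2 was 0.32. With both choroid-rich knockout libraries left out, Flrt1 and Flrt3 had log2 fold changes of 0.04 and 0.04, and 0 of the 6 were called; the lone remaining knockout library was then assumed to vary like the others.

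**Figure D2:**
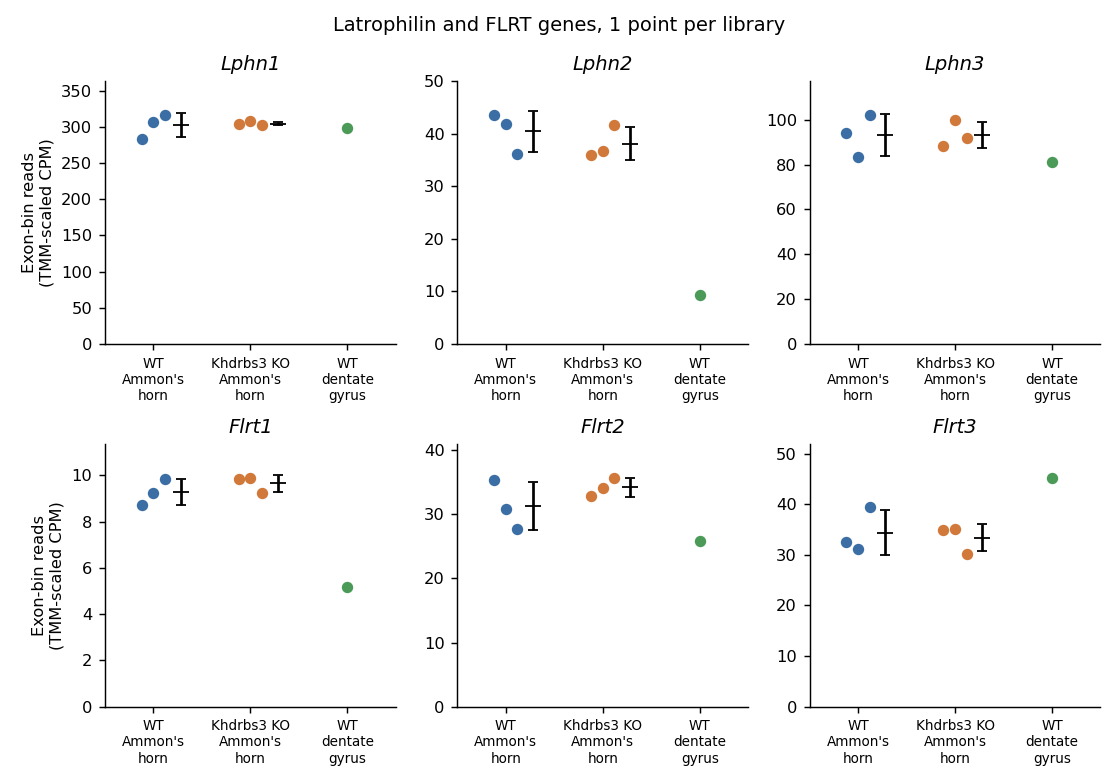
Exon-bin reads of the 6 genes in TMM-scaled CPM, on an axis from 0, with 1 point per library; black bars are mean ± SD of the 3 libraries of a group, and the dentate gyrus has 1 library. Wild-type and knockout points overlap for each gene, and the dentate gyrus point is far below them for Lphn2 (9.36 CPM) and below them for Flrt1 (5.16 CPM).

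The partner genes in the knockout gave the same count. Of 8 latrophilin ligands, 9 FLRT receptors and co-receptors and 10 intracellular partners of latrophilins, 0 of 27 were called by edgeR, DESeq2 or limma-voom, and 4 of 27 had an unadjusted p under 0.05 by edgeR, beside 1914 of the 22830 genes tested. The median log2 fold change was 0.09 for the ligands, -0.03 for the FLRT receptors and -0.06 for the intracellular partners, beside 0.00 over all genes tested. The teneurins, large transmembrane ligands of latrophilins, had log2 fold changes of 0.09 for Tenm1, 0.12 for Tenm2, 0.08 for Tenm3 and 0.12 for Tenm4. The UNC5 netrin receptors, which FLRT ectodomains bind, had 0.03 for Unc5a, -0.07 for Unc5b, 0.10 for Unc5c and 0.25 for Unc5d. Unc5d stood at 31.3, 28.1 and 36.7 CPM in wild type and 38.7, 34.8 and 40.7 CPM in the knockout, with an adjusted p of 0.53 by edgeR.

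The second comparison set the dentate gyrus, whose principal cells are granule cells, against Ammon's horn, whose principal cells are pyramidal cells. Only 1 dentate gyrus library exists here, so its spread was taken from the other groups in a fit over all 7 libraries, and the difference has no replicate check in that tissue. By edgeR, 2 of the 6 genes were called, both lower, in a comparison in which 22.0% of 24486 genes were called, 10.9% as lower and 11.2% as higher. The 2 were Lphn2 and Flrt1.

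Lphn2 fell to 7.32 CPM in the dentate gyrus, from 33.8, 32.7 and 27.8 CPM in wild-type Ammon's horn, and the 3 knockout libraries of Ammon's horn were at 27.0 CPM or above. The dentate gyrus value was 4.29-fold lower, a log2 fold change of -2.10 ± 0.15 (SE; 95% interval -2.44 to -1.77; adjusted p = 1.16e-05 by edgeR). Only 1.71% of all genes tested had a change as large in either direction. The exon-bin sums gave the same size, -2.11, from 330 reads in the dentate gyrus beside 1317, 1658 and 1287 reads in the wild-type libraries of Ammon's horn. The decrease ran along the whole gene: all 25 tested Lphn2 bins were below the wild-type mean, at a median of 0.245 of it, with single bins from 0.047 to 0.711.

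Flrt1, the scarcest FLRT gene, fell from 11.8, 11.7 and 12.1 CPM to 5.84 CPM, a log2 fold change of -1.02 ± 0.12 (SE; interval -1.28 to -0.76; adjusted p = 2.36e-04 by edgeR). In the exon-bin sums, where 29.3% of genes were called, 14.5% as lower and 14.8% as higher, the change was -0.85 ± 0.15 (SE; adjusted p = 0.0014 by edgeR), from 182 dentate gyrus reads. Macrod1, the gene around Flrt1 on the other strand, was also lower in the gene table, by -0.40 (adjusted p = 0.0109), but not in the exon-bin sums, where its log2 fold change was 0.17 (adjusted p = 0.42). The part of Macrod1 reads in the Flrt1 count was not tested. Both Flrt1 bins were below the wild-type mean, at 0.538 and 0.687 of it.

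The other 4 genes were not called. Lphn1 was level, at 322 CPM against 308 to 345 CPM, a log2 fold change of -0.02 (interval -0.19 to 0.16). Lphn3 was at 92.8 CPM, below the lowest wild-type library at 101 CPM, with a log2 fold change of -0.27 (interval -0.47 to -0.06; adjusted p = 0.062 by edgeR). It was called by DESeq2 (adjusted p = 0.0285) and by edgeR without wild-type replicate 2 (-0.33, adjusted p = 0.0107), and its exon-bin sums gave -0.20 (adjusted p = 0.20).

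Flrt2 was at 30.1 CPM, below 34.1 to 41.3 CPM in wild-type Ammon's horn, with a log2 fold change of -0.30 (interval -0.55 to -0.04; adjusted p = 0.094 by edgeR). Flrt3 was the 1 member with a positive value of any size: 44.8 CPM against 34.3, 31.9 and 41.4 CPM, a log2 fold change of 0.32 (interval 0.05 to 0.60; adjusted p = 0.093 by edgeR). Its exon-bin sums, 45.2 CPM against 32.5, 31.1 and 39.5 CPM, were called higher by edgeR (0.39 ± 0.13 SE, adjusted p = 0.0389). Without wild-type replicate 3, edgeR called both Flrt2 (-0.35, adjusted p = 0.0498) and Flrt3 (0.44, adjusted p = 0.00777), which made 4 called members. All 6 tested Flrt3 bins were above the wild-type mean, at a median of 1.36 of it. Macrod2, the gene around Flrt3 on the other strand, also had a positive log2 fold change in the gene table and in the exon-bin sums, and was called in neither. The part of Macrod2 reads in the Flrt3 count was not tested.

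**Figure D3:**
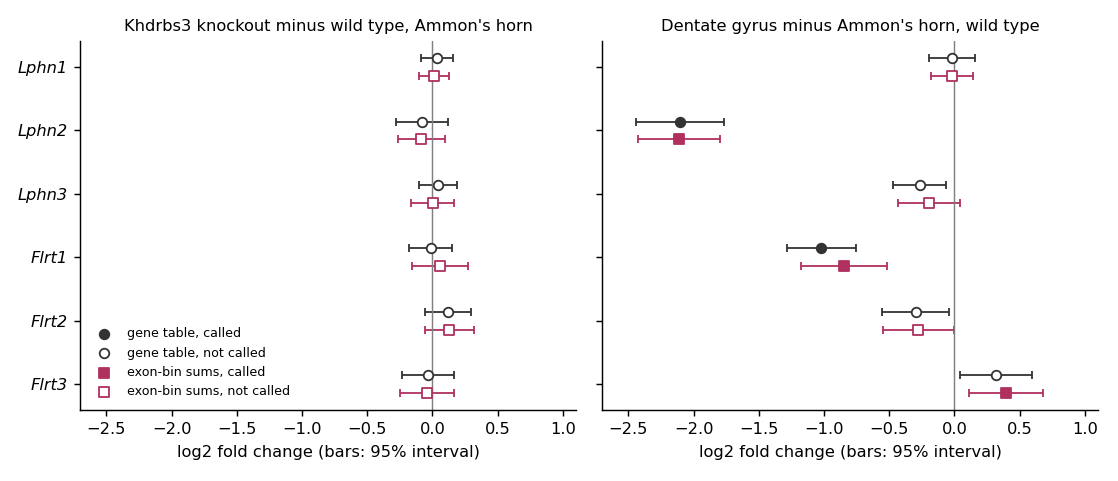
Log2 fold changes of the 6 genes with 95% intervals from the edgeR fits, for the gene table (circles) and the exon-bin sums (squares); filled symbols passed an adjusted p under 0.05. On the left (knockout minus wild type) every interval spans 0; on the right (dentate gyrus minus Ammon's horn) Lphn2 at -2.10 and Flrt1 at -1.02 stand apart, and Flrt3 is called in the exon-bin sums only.

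Cell type markers were looked at in the same comparison, in which 22.0% of all genes were called. The 6 CA1 pyramidal markers summed to 112 CPM in the dentate gyrus, beside 786 to 820 CPM in wild-type Ammon's horn, and 6 of 6 were called lower. Of 8 dentate granule markers, 7 were called higher and 1, Pdzd2, lower in the gene table, while the exon-bin sums called all 8 higher. In the gene table the 8 markers summed to 1271 CPM against 794 to 815 CPM. Their median log2 fold change there was 2.87, so the sum, in which abundant genes weigh most, understates the typical marker. Prox1, from the granule list, stood at 210 CPM in the dentate gyrus and at 24.1, 18.9 and 27.9 CPM in the wild-type libraries of Ammon's horn. It was thus not at 0 in Ammon's horn, and the cells that gave its reads there were not tested. The 4 mossy cell markers summed to 42.6 to 57.4 CPM in wild-type Ammon's horn and 155 CPM in the dentate gyrus, with 3 called higher. The 6 adult neurogenesis markers summed to 32.8 to 52.5 CPM against 175 CPM, with 5 called higher. The 6 CA2 and CA3 pyramidal markers summed to 594 to 688 CPM against 412 CPM, with 1 called higher and 2 lower. Of 8 oligodendrocyte markers, 8 were called lower, with sums of 4307 to 4469 CPM against 1504 CPM, and 7 of 10 interneuron markers were called lower and 1 higher. Of 8 astrocyte markers 0 were called, and of 8 microglia markers 4 were called lower. Of 7 endothelial and mural markers, 1 was called higher and 1 lower. The part of these markers' cell types in the Lphn2 and Flrt1 differences was not tested, and in bulk tissue fewer cells of a type and less RNA per cell cannot be told apart.

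The genes whose levels ran most like each member over the 7 libraries are given as a description, by Pearson's r of log2 CPM among 11897 protein-coding genes. For Lphn2 they were Pou3f1 (r = 0.997), which is also in the CA1 marker list, and Zfp703 (r = 0.997). For Flrt1 they were Arnt2 (r = 0.998) and Tle3 (r = 0.998). These high values rest largely on the dentate gyrus library, since 459 genes reached r = 0.95 with Lphn2 and 522 with Flrt1, and over the 6 Ammon's horn libraries alone r was 0.895 for Pou3f1 and 0.717 for Arnt2. The likest genes were Unc13c (0.966) and Kndc1 (0.951) for Lphn1, Pafah1b1 (0.989) and Sik3 (0.987) for Lphn3, AI317395 (0.982) and Lrrc4c (0.977) for Flrt2, and Tnfaip8l3 (0.990) and Rab3ip (0.980) for Flrt3.

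Among the partner genes, 9 of 27 were called in the dentate gyrus by edgeR, 2 higher and 7 lower, in the comparison in which 22.0% of all genes were called, 11.2% as higher and 10.9% as lower. Of the 8 latrophilin ligands, 1 was higher and 2 were lower, with a median log2 fold change of -0.14 beside -0.01 over all genes tested. The teneurins differed among themselves. Tenm1 rose from 44.0, 42.7 and 56.9 CPM to 75.7 CPM, by 0.66 ± 0.13 on the log2 scale (SE; adjusted p = 0.00491 by edgeR). Tenm3 fell from 77.1, 77.1 and 92.8 CPM to 49.9 CPM (-0.72 ± 0.12 SE, adjusted p = 0.00146). Both dentate gyrus values lay outside the Ammon's horn range, and both calls held in all 14 settings tried.

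Tenm2 (0.29, adjusted p = 0.13 by edgeR) and Tenm4 (-0.16, adjusted p = 0.27) were not called in the gene table, and Tenm2 was called higher in the exon-bin sums (0.42, adjusted p = 0.0443). Nrxn3, a presynaptic neurexin, was called lower (-0.28, adjusted p = 0.0451 by edgeR). That call was lost in 7 of the 14 settings, among them the fits with the 4 wild-type libraries only (adjusted p = 0.104) and without wild-type replicate 1 (0.0837), wild-type replicate 3 (0.075) and knockout replicates 1, 2 and 3 (0.0587, 0.0622 and 0.0815).

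Of the 9 FLRT receptors and co-receptors, 1 was called higher and 1 lower, with a median log2 fold change of -0.05. Unc5b fell from 24.5, 25.4 and 26.1 CPM to 12.1 CPM (-1.07 ± 0.12 SE, adjusted p = 1.35e-04 by edgeR), a change of about the size seen in Flrt1, and the call held in all 14 settings. Unc5c was called higher at the edge of the threshold (0.35, adjusted p = 0.0485 by edgeR), and 8 of the 14 settings lost it, among them those with the 4 wild-type libraries only (adjusted p = 0.102), without wild-type replicates 1 (0.0966) or 2 (0.097) or without knockout replicates 1, 2 or 3 (0.0704, 0.0672 and 0.0693). Unc5a (0.18, adjusted p = 0.11) and Unc5d (-0.05, adjusted p = 0.82) were not called.

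Of the 10 intracellular partners, 4 were called lower and 0 higher by edgeR, with a median of -0.18, beside 10.9% of all genes called lower. All 4 encode G protein alpha subunits, which make up most of this list. Its other alpha subunits, Gna13, Gnaq and Gna11, were not called. Gnai1 fell from 191, 158 and 171 CPM to 114 CPM (-0.61, adjusted p = 0.00174) and Gna12 from 77.0, 83.8 and 82.7 CPM to 56.2 CPM (-0.53, adjusted p = 7.48e-04). Gnao1 changed by -0.30 (adjusted p = 0.0144) and Gnai2 by -0.23 (adjusted p = 0.0315), the latter lost in 3 of the 14 settings: with the 4 wild-type libraries only (adjusted p = 0.1), without knockout replicate 2 (adjusted p = 0.0568) and without knockout replicate 3 (adjusted p = 0.0647). The 3 SHANK scaffolds, which bind the tail of latrophilins, had log2 fold changes of -0.26, 0.05 and 0.14 for Shank1, Shank2 and Shank3, with 0 called.

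**Figure D4:**
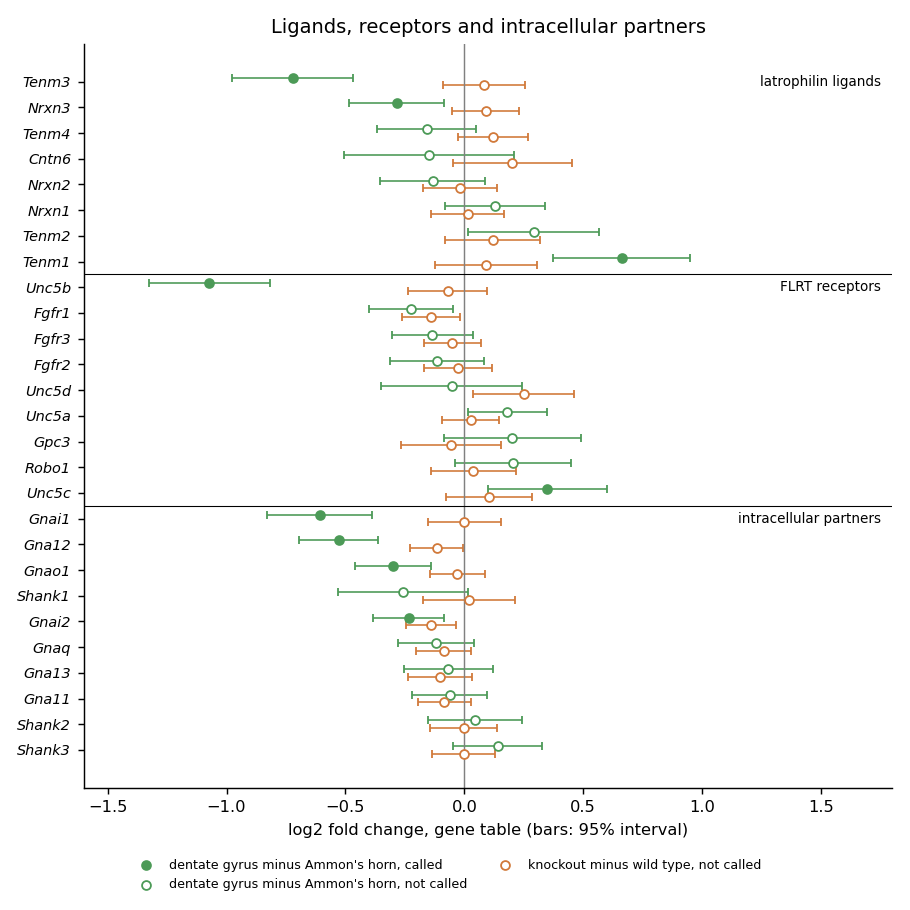
Log2 fold changes of the 27 partner genes with 95% intervals from the edgeR fits of the gene table, dentate gyrus minus Ammon's horn in green and knockout minus wild type in orange, grouped by role; filled points passed an adjusted p under 0.05. Filled points are green only: Unc5b, Tenm3, Gnai1, Gna12, Gnao1, Nrxn3 and Gnai2 to the left of 0 and Tenm1 and Unc5c to the right.

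Exon usage was then compared, as the change of each bin against the change of its whole gene (edgeR's diffSpliceDGE). Of the 157 bins, 114 had enough reads to be tested: 30 of Lphn1, 25 of Lphn2, 47 of Lphn3, 2 of Flrt1, 4 of Flrt2 and 6 of Flrt3. In the knockout 0 of 114 were called, against 0.00301% of 166154 bins tested (5 bins). By edgeR 0 of 114 had an unadjusted p under 0.05, beside 2852 of the 166154 bins tested. The lowest p of any member bin was 0.097, for Lphn3 bin 53, a coding bin of 67 bases with a usage change of -0.20 ± 0.12 (log2, SE). Exon usage tested with limma-voom also called 0 of the 114 bins.

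For 5 of the exons printed above, Lphn1 bin 11, Lphn2 bin 19 and Lphn3 bins 33, 43 and 55, the read counts of wild-type and knockout libraries overlapped. Lphn1 bin 11, the 15-base exon that 4 of 7 annotated transcripts over this position contain, held 24, 40 and 53 reads in wild type, 24, 43 and 33 in the knockout libraries and 51 in the dentate gyrus. Set against the 17-base bin that ends the exon before it, a bin of nearly the same length, these reads were 40.3% ± 3.0 in wild type, 35.6% ± 4.7 in the knockout (SD, n = 3 and 3) and 40.5% in the dentate gyrus. The wild-type values of 36.9%, 41.7% and 42.4% overlapped the knockout values of 30.8%, 35.8% and 40.2%. The usage change in the knockout was -0.12 ± 0.19 (log2, SE; adjusted p = 1.0 by edgeR).

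Its counterpart, Lphn3 bin 33, is contained in 20 of 24 transcripts and held 21, 31 and 31 reads in wild type, 29, 27 and 28 in the knockout and 35 in the library of the dentate gyrus. The 39-base Lphn3 bin 43 held 44, 54 and 52 reads in wild type, 49, 67 and 42 in the knockout and 46 in the library of the dentate gyrus. The 27-base Lphn3 bin 55, present in 11 transcripts and skipped in 11, held 17, 22 and 24 reads in wild type and 21, 22 and 34 in the knockout. Its share of Lphn3 reads was 0.60%, 0.67% and 0.66% in wild type and 0.69%, 0.60% and 1.24% in the knockout, so knockout replicate 3 alone was high, with a usage change of 0.25 ± 0.19 (log2, SE; unadjusted p = 0.20). The matching Lphn2 bin 9 held at most 3 reads in any library, beside 2 to 13 reads in the 45-base bin 10 next to it. Bin 9 was not tested, so that a change in its inclusion was not measurable at this depth.

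In the dentate gyrus also 0 of 114 bins were called by edgeR, against 0.213% of 169072 bins tested. Limma-voom called 0 as well, with a lowest adjusted p of 0.13. By edgeR 6 had an unadjusted p under 0.05, 3 in Lphn1 and 3 in Lphn2, beside 6571 of the 169072 bins tested. The strongest in Lphn2 were bin 27, a coding bin of 73 bases (1.14 ± 0.41, log2, SE; unadjusted p = 0.00585, adjusted p = 0.66 by edgeR), and bin 19, the 39-base exon printed above (-1.53 ± 0.57; unadjusted p = 0.00793, adjusted p = 0.78). Bin 19 held 2 reads in the dentate gyrus, beside 39, 48 and 40 reads in the wild-type and 34, 42 and 36 reads in the knockout libraries. Its share of Lphn2 reads was 2.96%, 2.90% and 3.11% in wild type and 0.606% in the dentate gyrus, where an exact Clopper-Pearson 95% interval, which covers counting error only, ran from 0.073% to 2.2%. The interval ends below the wild-type shares, but the difference did not pass the test over all bins. With 330 Lphn2 exon reads in the dentate gyrus, the depth there limits any statement on single bins.

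In Lphn1 the bins with the lowest p in the dentate gyrus lay at the 5′ end of the coding part: bin 6 (214 bases; usage change 0.34 ± 0.12, log2, SE; adjusted p = 0.77 by edgeR) and bin 12 (589 bases; 0.27 ± 0.11; adjusted p = 0.93). Without wild-type replicate 3, 3 Lphn1 bins were called as used more, bins 6, 7 and 12, with the lowest adjusted p at 0.0015. That library resembled the dentate gyrus in the spread of reads along Lphn1. Bins 4 to 16 held 27.4% of Lphn1 reads in wild-type replicate 3 and 28.7% in the dentate gyrus, against 21.6% and 20.2% in wild-type replicates 1 and 2 and 21.7%, 24.4% and 23% in the knockouts. Bins 38 to 40 at the 3′ end held 47.7% and 47.0%, against 54.6% and 55.2% in the other wild-type libraries. The part of coverage along the transcript in the bin values was not tested.

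In Lphn3, Flrt1, Flrt2 and Flrt3, 0 of the tested bins had an unadjusted p under 0.05 in the dentate gyrus. Flrt1 has 2 bins, and the long coding one held 84.8%, 90.7% and 86.9% of its reads in the wild type and 84.6% in the dentate gyrus. The long coding bin of Flrt2, bin 3, held 30.9%, 31.6% and 31.2% in wild type and 36.5% in the dentate gyrus (usage change 0.16 ± 0.10, log2, SE; unadjusted p = 0.13 by edgeR).

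**Figure D5:**
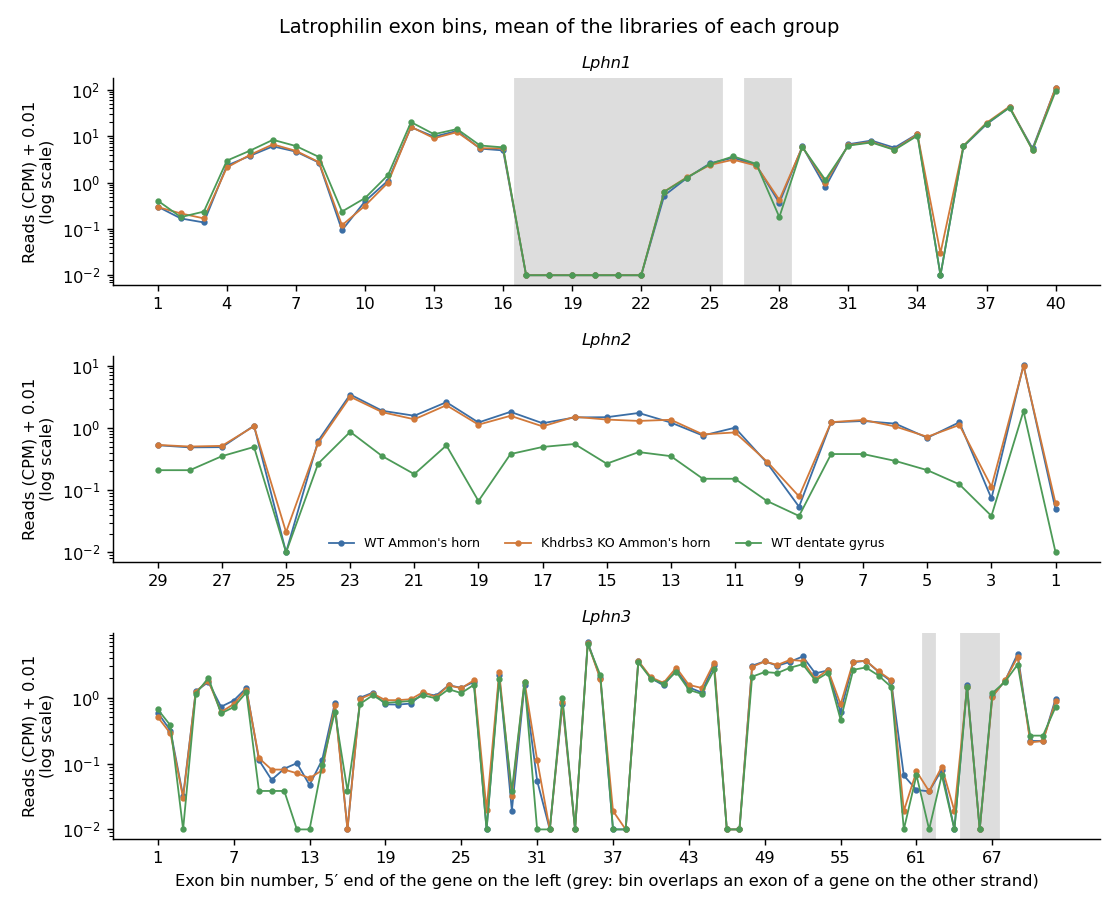
Exon-bin reads in CPM (plus 0.01, log axis) in each exon bin of the latrophilins, as the mean of the libraries of a group, with the 5′ end of each gene on the left; grey marks bins that overlap an exon of a gene on the other strand. Knockout and wild type follow each other, the dentate gyrus lies below the wild type at each of the 25 tested Lphn2 bins, and Lphn1 bins 17 to 22 are at 0 in every group.

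A stretch of Lphn1 could not be measured in the exon bins. Bins 17 to 22, 882 bases that begin with the 39-base exon printed above, held 0 reads in all 7 libraries, although bin 16 next to them was read in each. They overlap exon sequence of Gm10644, a gene of the opposite strand; 11 Lphn1 bins (1399 bases) overlap its exons in all, and the other 5 held reads. In Lphn3, 4 bins overlap exons of another gene and 6 bins (265 bases) were at 0, of which 1 is under such an exon; in Flrt3, 3 bins (335 bases) were at 0 with no such overlap. The 39-base exon therefore has values in Lphn2 and Lphn3 only, and a 0 in Lphn1 is no measure of its inclusion. These bins were left out of the levels per length where another gene's exon covers them.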

How the data were processed

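Raw counts were used as the authors deposited them: a gene table for all libraries and 1 file of exon-bin counts per library. The genome was mm10, and bedtools 2.17.0, DESeq2 1.0.19, Trim Galore 0.3.5 and TopHat2 2.0.8b are listed without roles, per the submitters' processing notes. Strand use in counting is not given in the sources used here. Gene-table counts of the 6 genes were 1.33 to 2.19 times their exon-bin sums in wild-type Ammon's horn (group means), and a read over several bins may count in each. Bin positions were rebuilt from GENCODE M21 transcripts, and bin numbers and gene ends matched for all 6 genes.

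Gene tests used edgeR 4.0.16 in R 4.3.3 (TMM, filterByExpr, quasi-likelihood F test, Benjamini-Hochberg over all genes, called at 0.05). Exon usage was tested with diffSpliceDGE over bins reaching 10 reads in 3 or more libraries. The knockout fit used 6 libraries and the dentate gyrus fit all 7. Alternatives were DESeq2 1.42.0, limma-voom (limma 3.58.1), RLE scaling, no filter, exon-bin sums, other library sets and a choroid plexus covariate. Scripts were tested on simulated data.

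Replicates were numbered in accession order. All 6 genes were named in every comparison, with all teneurins and UNC5 genes, and of each list the called members, up to 4 per direction by size. Of bins, those called were named, otherwise the 2 per gene with the lowest p, given in full only where p was low. The members and lists were chosen with earlier results of these data known.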

Additional observations from a re-analysis of the deposited data

How the results depend on the processing

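No paired analysis was possible because the labels carry no replicate numbers. Of 162 alternative log2 fold changes of the 6 genes, 145 kept their direction and side of the threshold, 5 became called and 12 changed sign. The sign changes concern values near 0: in the knockout, Flrt1 in the exon-bin sums (0.057), with a choroid plexus covariate (0.023), without both choroid-rich knockout libraries (0.041) and without single libraries (-0.041 to 0.0011); Flrt3 with the covariate (0.037), without both choroid-rich libraries (0.038) and without single libraries (-0.12 to 0.083). Without single libraries Lphn1 ran from -0.0035 to 0.078 and Lphn3 from -0.027 to 0.095 in the knockout, and Lphn1 from -0.057 to 0.026 in the dentate gyrus. Lphn2 was called lower in the dentate gyrus in all 14 settings (-2.18 to -2.05), and so was Flrt1 (-1.03 to -0.85). Leaving out single libraries moved the called members in the dentate gyrus between 2 and 4 and the called bins between 0 and 3, the higher counts without wild-type replicate 3. Per length of gene body in place of exon, the ratios were 43.6 for Lphn1 over Lphn2 (8.61 per exon length), 56.4 for Lphn1 over Lphn3 (5.40), 0.78 for Lphn3 over Lphn2 (1.61), 2.02 for Flrt3 over Flrt1 (4.46), 4.42 for Flrt3 over Flrt2 (1.78) and 0.46 for Flrt2 over Flrt1 (2.58), since introns enter the length. On the shared internal coding exon, which is cut into 2 bins in Lphn1 only, Lphn1 over Lphn3 was 3.65 and Lphn3 over Lphn2 2.08. The ratios per exon length include annotated bins of Lphn3 and Lphn2 with few or no reads. The part of these bins was not tested, nor was that of reads counted in several bins. The dentate gyrus has 1 library, and counting depth limits its bins with few reads.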

Other observations

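Genes of leucine-rich repeat synaptic proteins other than FLRTs were compared between the regions, in a list chosen with earlier results known. Of 18 such genes, 5 were called higher and 1 lower in the dentate gyrus by edgeR. Over all genes tested 22.0% were called, 11.2% as higher and 10.9% as lower. Lrrtm4, a postsynaptic organiser, stood at 43.2, 38.9 and 38.1 CPM in wild-type Ammon's horn and 78.7 CPM in the dentate gyrus (log2 fold change 0.97, adjusted p = 3.04e-05). Slitrk2 stood at 18.8, 18.9 and 21.9 CPM against 36.2 CPM (0.87, adjusted p = 6.92e-04). Both dentate gyrus values lay above all 6 Ammon's horn libraries, and both calls held in all 14 settings. Slitrk3 (0.37) and Lrrc4 (0.37) were higher as well. Slitrk4 was called lower (-0.33, adjusted p = 0.0371), a call that 7 of the 14 settings lost, 5 of them fits without 1 library.

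Of 27 other adhesion G protein-coupled receptors listed, 25 were tested in the gene table. There 2 were called higher and 2 lower in the dentate gyrus by edgeR, beside 22.0% of all genes called. In the exon-bin sums 20 were tested, with 4 called higher and 2 lower, beside 29.3% of all genes called. Celsr3, a cadherin-type member, stood at 27.6, 35.7 and 32.0 CPM in wild-type Ammon's horn and 66.8 CPM in the dentate gyrus (1.07, adjusted p = 5.24e-04), and Bai2 changed by 0.29 (adjusted p = 0.018). Gpr123 fell from 69.7, 76.4 and 69.7 CPM to 45 CPM (-0.68, adjusted p = 2.69e-04). Gpr126 was called lower in the gene table (-0.45, adjusted p = 0.0266) and higher in the exon-bin sums (1.08, adjusted p = 0.0476), so its direction depends on which reads are counted. In the knockout 0 of the 25 adhesion receptors and 0 of the 18 leucine-rich repeat genes were called by edgeR, DESeq2 or limma-voom. By edgeR 0 of either list had an unadjusted p under 0.05, beside 1914 of the 22830 genes tested.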
